A study of Mus musculus with 10 samples.

Results

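The 4 Hox clusters were examined in the DNA methylation of mouse spermatozoa, by reduced representation bisulfite sequencing (RRBS), an assay that reads the methylation of CpG sites in size-selected MspI fragments. The members were the CpG sites that lay within an annotated Hox gene or within 2 kb of one, for 38 genes on a given list: 10 of the Hoxa cluster on chromosome 6, 10 of the Hoxb cluster on chromosome 11, 9 of the Hoxc cluster on chromosome 15 and 9 of the Hoxd cluster on chromosome 2 (GENCODE M21 on GRCm38). Of 904364 CpG sites with 10 or more reads in every animal, 2627 were Hox CpG sites (745, 579, 507 and 796 in the Hoxa, Hoxb, Hoxc and Hoxd clusters), and all 38 genes had 5 or more of them. The annotated Hoxa3, Hoxc5 and Hoxd3 genes run through their neighbours, so a CpG site near several genes was counted for each of them.

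All 10 animals were C57Bl/6 males. In the P-generation, males aged 7 weeks were injected intraperitoneally 3 times per week for 7 weeks, either with vehicle (7.5% DMSO in PBS; animals C8 and C14) or with 0.1 µg per g body weight of decitabine, an inhibitor of DNA methyltransferases (D10, D11 and D13). The F3-generation descended from such males by mating to untreated females was itself never treated and was analysed at 14 weeks of age: F3C9 came from C8 and F3C30 from C14 (vehicle lineage), F3D1 and F3D31 came from D10 and F3D7 from D11 (decitabine lineage). The F3 animals are therefore not independent of the P animals, 2 of them share an ancestor, and D13 has no descendant here. Spermatozoa were taken from the whole epididymis, and each animal gave 1 library.

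Hox genes encode homeodomain transcription factors that set the position of cells along the body axis. Within a cluster, the genes of low number act towards the head and those of high number towards the tail, and genes of the same number in different clusters are paralogues. Their CpG-rich DNA is known for its low methylation in the germ line, where Polycomb proteins hold developmental genes in a poised state. Decitabine is incorporated into DNA and traps DNA methyltransferases, so sites that carry methylation are those at which its loss could be read.

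Few Hox CpG sites carried high methylation, and 24 of the 36 sites at 50% or more (mean of 10 animals) stood in 5 runs of at least 3 neighbouring measured sites, with no gap above 1000 bp, called pockets below. Their reference sequences (GRCm38, plus strand) are shown because the results on methylated Hox DNA rest on them. The measured CpG sites of each pocket are in capitals and every other CG is in lower case. For Hoxb pocket 1 (chr11:96274652-96274753), which lies in the Hoxb9 exon that encodes the homeodomain, the window holds 3 of the 4 sites. The other windows are chr11:96323269-96323325, chr11:96339901-96340026 and chr15:102978900-102978996, and for Hoxd pocket 1 the intronic end (chr2:74721244-74721443), with 3 of its 9 sites.

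Hoxb pocket 1: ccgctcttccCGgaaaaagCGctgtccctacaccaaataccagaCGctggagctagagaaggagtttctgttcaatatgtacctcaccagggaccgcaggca
Hoxb pocket 2: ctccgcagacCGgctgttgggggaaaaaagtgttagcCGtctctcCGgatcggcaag
Hoxb pocket 3: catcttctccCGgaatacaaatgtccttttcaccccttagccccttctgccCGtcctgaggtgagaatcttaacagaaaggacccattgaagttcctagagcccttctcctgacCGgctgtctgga
Hoxc pocket 1: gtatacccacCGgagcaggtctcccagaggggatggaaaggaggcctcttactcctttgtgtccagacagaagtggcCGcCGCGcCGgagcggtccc
Hoxd pocket 1: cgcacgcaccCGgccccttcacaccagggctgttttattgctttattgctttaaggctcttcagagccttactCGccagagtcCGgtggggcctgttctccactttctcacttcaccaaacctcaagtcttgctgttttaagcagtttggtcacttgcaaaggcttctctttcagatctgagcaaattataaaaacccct

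Of the libraries, the one of C8 stood apart. It had the fewest cytosines of the 10 (1663949 against 1734533 to 1897776), and at the Hox CpG sites it had both the largest share at exactly 0 (72.3% against 43.8% to 62.8%) and the most sites at 50% or more (64 against 30 to 43). Spermatozoa lack methylation at maternally imprinted control regions, whereas in somatic cells one parental copy is methylated. Of 6 genes with such regions, Mest and Kcnq1ot1 had no measured site within 500 bp of their starts, and over 10 animals the level was 6.24% to 27.3% at Snrpn (4 sites), 5.11% to 36.9% at Peg3 (5), 6.64% to 12.3% at Plagl1 (43) and 3.52% to 25.5% at Peg10 (12), with C8 highest at all 4. D11 was close to C8 at Peg10, at 23.5%. The paternally methylated region upstream of H19 (2 sites) was at 84.65% to 100%, with C8 highest here too, at 100%. C8 was thus highest at the maternal and at the paternal regions, and the part of these levels in the results was not tested. Where stated, values are also given without C8. Median coverage of the Hox sites was 40 to 95 reads per animal.

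Hox DNA was almost free of methylation in sperm. Over 2627 sites the mean level was 4.22% ± 0.411 (SD, n = 10 animals), and 2400 sites were under 10%, 191 at 10% to 50% and 36 at 50% or more. In the P-generation it was 5.21% in C8 and 3.76% in C14 (vehicle) and 4.21%, 4.42% and 3.99% in D10, D11 and D13 (decitabine). In the F3-generation it was 4.50% in F3C9 and 3.94% in F3C30 (vehicle lineage) and 4.15%, 4.06% and 3.97% in F3D1, F3D7 and F3D31 (decitabine lineage). C8 was the highest and C14 the lowest of the 10, so the vehicle animals of the P-generation enclosed all others.

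Hox CpG sites were lower than those of other protein-coding genes in every animal. The 737965 sites in or within 2 kb of other protein-coding genes had a mean of 21.1%, so that the Hox sites differed from them by -16.8 percentage points (lower in 10 of 10 animals, two-sided exact sign-flip permutation p = 0.00195, the smallest that 10 animals allow). Restricted to sites within 2 kb of a transcription start, the Hox mean was 3.69% against 7.21%, a difference of -3.52 points, again with Hox lower in 10 of 10 animals (exact permutation p = 0.00195). At the low end of the scale the order turned. Of Hox sites 1.37% were at 50% or more against 21.2% of the sites of other genes, yet the median Hox site was at 1.58% against 0.606%, and 7.27% of Hox sites against 5.53% of the others lay between 10% and 50%. A single Hox site exceeded 90% (the 3′ UTR site of Hoxb1 at 91.5%).

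**Figure D1:**
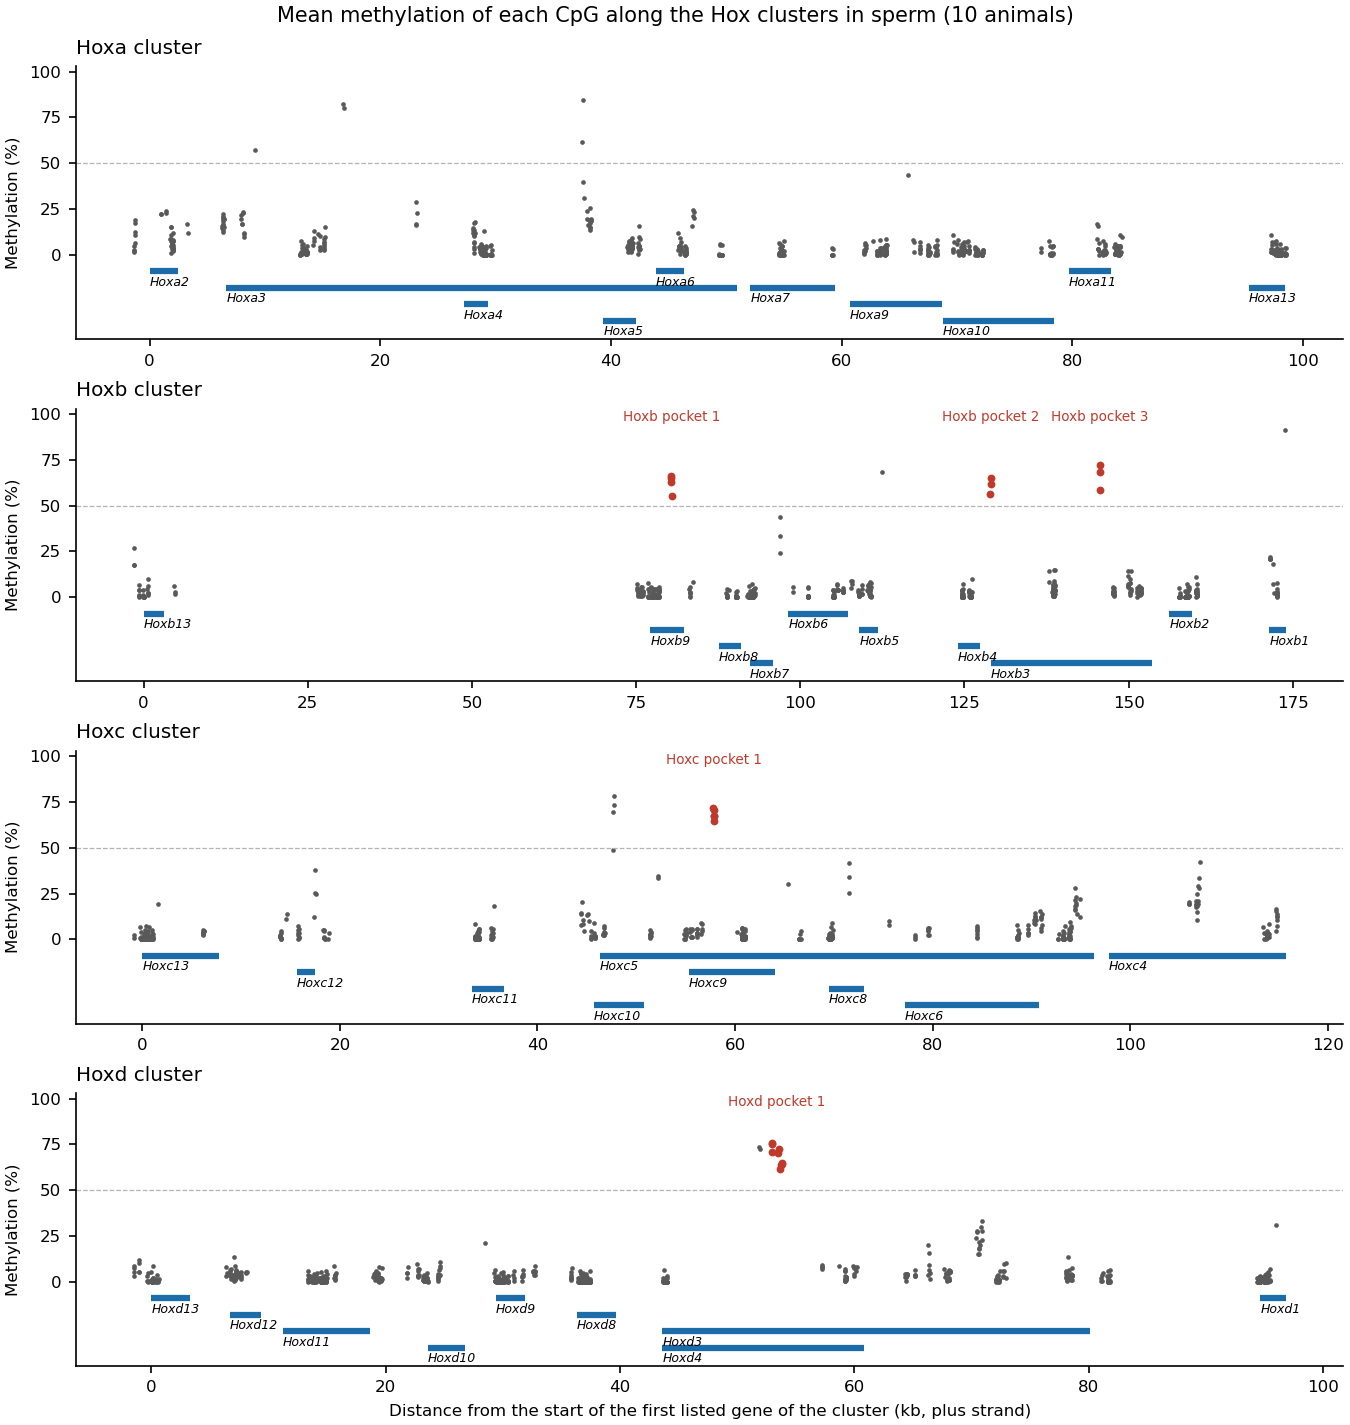
Mean methylation of each Hox CpG site (percent, mean of 10 animals, points) against the distance in kb from the start of the first listed gene on the plus strand, with the listed genes as bars. Most points lie under 10%, and the 24 sites of the 5 pockets (red) stand above the dashed line at 50% in the Hoxb, Hoxc and Hoxd clusters.

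The clusters differed in level. Hoxc was highest at 5.62% ± 0.706 (SD, n = 10), followed by Hoxa at 4.45% ± 0.707, Hoxb at 3.92% ± 0.459 and Hoxd at 3.33% ± 0.254. Hoxc exceeded each of the other clusters in 10 of 10 animals, with differences of -1.17 points for Hoxa minus Hoxc, -1.71 for Hoxb minus Hoxc and 2.29 for Hoxc minus Hoxd. Hoxa exceeded Hoxd by 1.12 points and Hoxb exceeded Hoxd by 0.584 points, again in 10 of 10 animals. For these 5 pairs the exact sign-flip permutation p, adjusted over the 6 pairs, was 0.00234. Hoxa exceeded Hoxb by 0.536 points in 7 of 10 animals (adjusted exact permutation p = 0.0547), so their order was not separated from the spread. The Hoxa level varied most between animals relative to its size, from 3.59% in C14 to 5.61% in C8 and 5.43% in D11.

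Level followed the density of CpG sites. In the 1039 sites with 20 or more CpG sites of the genome within 100 bp (itself included) the mean was 1.33% (1.03% to 1.48% over animals), and none of them reached 50%. It was 2.87% at 15 to 19 such sites, 4.51% at 10 to 14 and 8.63% at 5 to 9. In the 75 sites with fewer than 5 it was 32.4% (30.2% to 34.9%), and 22 of those 75 were at 50% or more. These 75 isolated sites therefore held 22 of the 36 highly methylated ones. Distance to the nearest Hox start gave a shallower gradient, from 2.41% within 500 bp to 7.31% beyond 5 kb. C8 reached 12.0% beyond 5 kb, where the highest of the other animals was at 7.94%.

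By place in the gene, coding exons (2.59%, 1222 sites) and 5′ UTRs (2.30%, 238 sites) were low, and introns (6.61%, 679 sites) and 3′ UTRs (8.38%, 65 sites) were higher. Sites were also grouped by the number of the nearest gene. Those nearest to genes 9 to 13, which act in the posterior body, had a mean of 2.83% (1187 sites), against 5.13% for genes 4 to 8 (870 sites) and 5.73% for genes 1 to 3 (570 sites). The lowest animal of the groups 1 to 3 (4.83%) exceeded the highest animal of the groups 9 to 13 (3.396%).

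**Figure D2:**
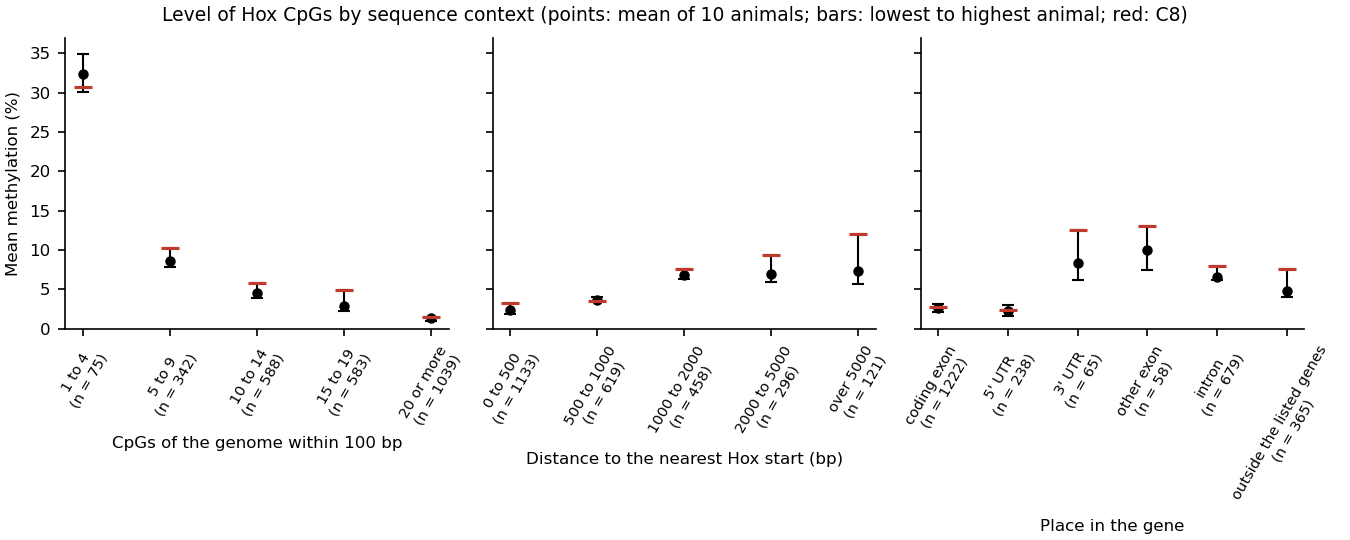
Mean methylation of Hox CpG sites (percent) by the number of CpG sites within 100 bp, by the distance to the nearest Hox start in bp and by the place in the gene; points are the mean of 10 animals, bars run from the lowest to the highest animal and red marks show C8. The 75 sites of lowest CpG density stand at 32.4%, and the next highest, exons that are neither coding nor UTR, at 10.0%.

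Of the 38 genes, 24 had a mean level under 5% and 34 under 10%, and 12 had a site at 50% or more. In the Hoxa cluster, Hoxa13, a gene of limb and genital development, was lowest at 1.42% (0.910% to 1.88% over animals), next to Hoxa7 at 1.56%. Hoxa5, which acts in lung and neck development, stood at 8.98% and Hoxa2, which patterns the neural crest of the second pharyngeal arch, at 9.04%. The animals of these 2 genes overlapped (SD 1.46 and 2.04 points), and their order was not separated from that spread.

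In the Hoxb cluster, Hoxb8 (0.878%) and Hoxb2 (1.60%) were lowest, and Hoxb3 (7.27%) and Hoxb1, a gene of the hindbrain (11.4%), were highest. Hoxb1 was at 19.7% in C8 and at 8.03% to 13.4% in the other 9 animals. In the Hoxc cluster, Hoxc13, a gene of hair and nail formation, was lowest at 1.82% and Hoxc11 next at 1.94%. Hoxc10, which acts in the hindlimb motor neurons, was at 11.7% (10.5% to 13.6%) and Hoxc4 at 12.3%. Hoxc4 was at 23.0% in C8 and at 7.63% to 14.4% in the other animals, and without C8 its mean was 11.1% and that of Hoxc10 11.8%, so the order of these 2 genes rested on C8. With each site counted only for its nearest start, Hoxc10 was at 6.34%, below Hoxc5 at 9.39%.

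In the Hoxd cluster, Hoxd8 (0.931%) and Hoxd1 (1.39%) were lowest. Hoxd3 was at 7.42% (6.78% to 8.39%), and Hoxd4, a gene of the neck vertebrae and hindbrain, was the highest gene of all 38 at 13.02% (9.55% in C8 to 15.3% in F3D31). Its sites were split: 11 of 70 were at 50% or more, and all 11 lay in an intron of Hoxd3 and Hoxd4 or in the first exon of a Hoxd4 transcript. C8 was the highest animal in 17 of the 38 genes and the lowest in 5 (Hoxb7, Hoxb8, Hoxb13, Hoxc11 and Hoxd4).

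**Figure D3:**
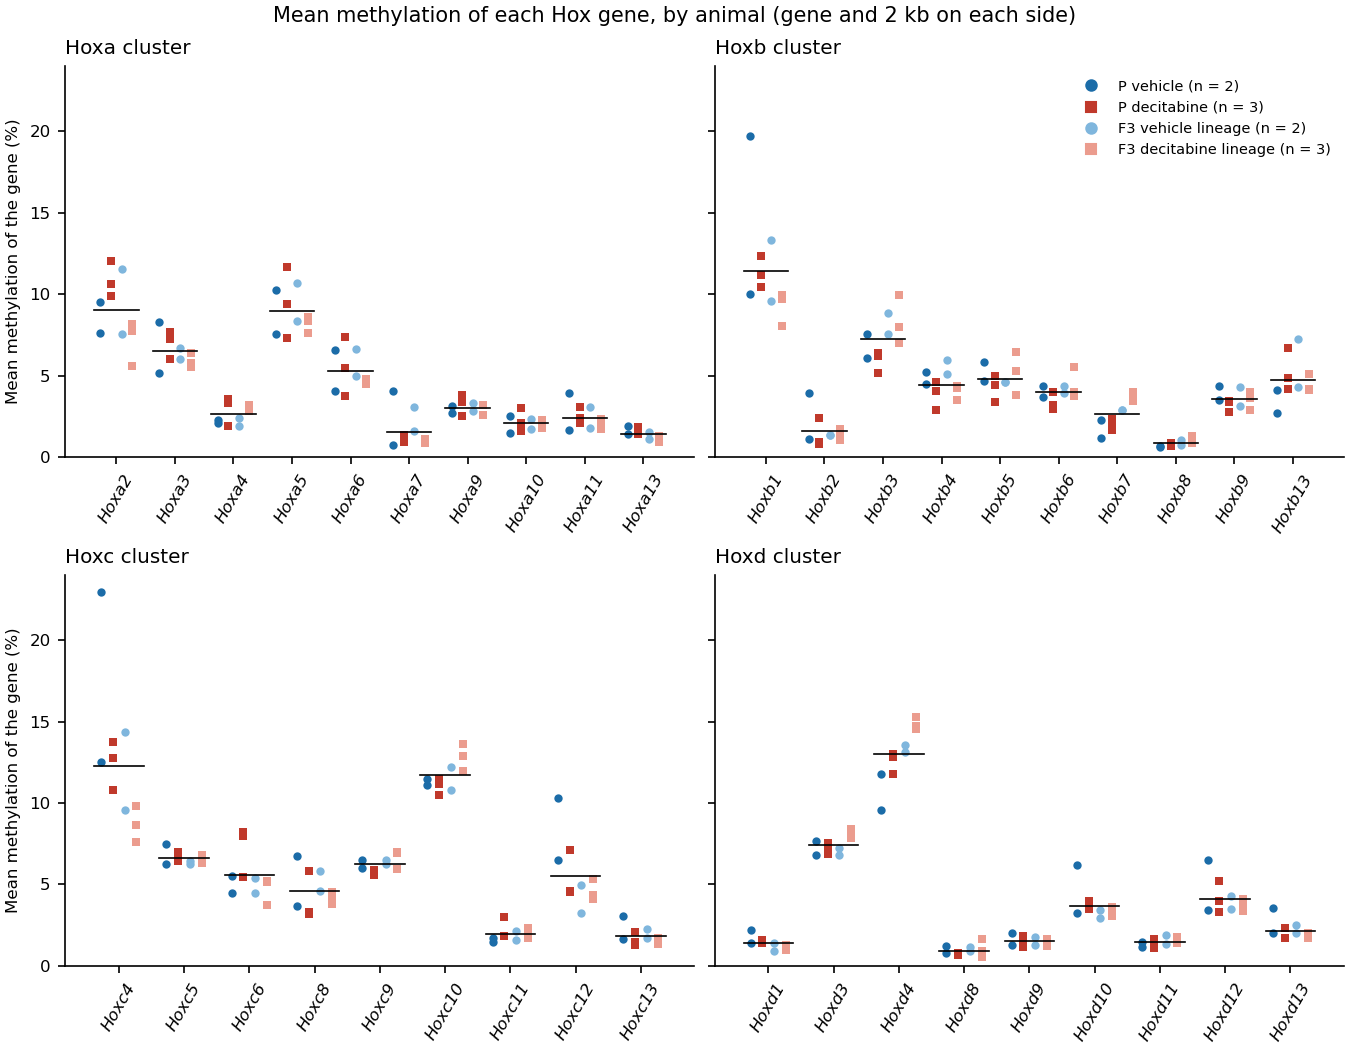
Mean methylation of each Hox gene with 2 kb on each side (percent) by animal, in P vehicle (n = 2), P decitabine (n = 3), F3 vehicle lineage (n = 2) and F3 decitabine lineage (n = 3) animals; black lines are the mean of 10. Most genes lie under 10%, the single high points of Hoxb1 (19.7%) and Hoxc4 (23.0%) are C8, and in Hoxd4 the decitabine animals lie above the vehicle animals in both generations.

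The 5 pockets stood at intermediate to high levels, and the nearest measured sites on either side were at 3.88% to 14.6%, except to the left of Hoxd pocket 1 (72.2%). These neighbours lay 1014 bp to 8889 bp away, so the places where the methylation ends were not measured. Hoxb pocket 1 (4 sites over 152 bp, Hoxb9) averaged 62.4%, and the nearest measured sites outside it, 1795 bp and 2620 bp away, were at 3.96% and 4.29%. Hoxb pocket 2 (3 sites over 37 bp) ended 12 bp upstream of an annotated Hoxb3 start and averaged 61.1%. Hoxb pocket 3 (3 sites over 106 bp) lay in a Hoxb3 intron that the antisense gene Gm11536 overlaps, at -930 bp from another Hoxb3 start (minus marks upstream), and averaged 66.3%. Hoxc pocket 1 (5 sites over 77 bp) lay in an intron of both Hoxc9 and Hoxc5 and averaged 68.5%. Hoxd pocket 1 was the longest, with 9 sites over 872 bp from an intron of Hoxd3 and Hoxd4 into a 5′ UTR exon of Hoxd4, and averaged 68.9%. No site of any pocket averaged above 75.9%, and the Hoxa cluster had no pocket. RRBS measured 4 of 5, 3 of 3, 3 of 3, 5 of 5 and 9 of 13 CpG sites of the genome in these spans.

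The 12 highly methylated sites outside the pockets stood in shorter runs. They included 2 sites in a Hoxa3 intron (82.4% and 80.2%), 2 exonic sites in the stretch shared by Hoxa3 and Hoxa5 (84.5% and 61.7%), 3 in an intron of Hoxc10 and Hoxc5 (69.6% to 78.6%), 2 further ones in the Hoxd3 and Hoxd4 intron (73.6% and 72.2%) and the Hoxb1 site named above. The remaining 2 were an intronic Hoxa3 site at 57.0% and a site downstream of Hoxb5 at 68.1%, both of which are described again with the group comparisons.

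Pocket levels varied between animals more in absolute terms than the rest of the Hox DNA, with an SD of 6.89 points against 0.467. Over all 24 pocket sites the mean was 54.6% in C8 and 69.2% in C14 (P vehicle), 59.96%, 58.4% and 68.7% in D10, D11 and D13 (P decitabine), 63.2% in F3C9 and 71.9% in F3C30 (F3 vehicle lineage), and 73.1%, 74.5% and 70.7% in F3D1, F3D7 and F3D31 (F3 decitabine lineage). C8 was lowest here, whereas over the 2603 Hox sites outside the pockets it was highest, at 4.75% against 3.15% to 3.96% in the other animals. The range over animals was 43.6% to 83.7% for Hoxc pocket 1, 44.8% to 75.7% for Hoxb pocket 1, 51.6% to 77.9% for Hoxb pocket 3 and 43.5% to 78.5% for Hoxb pocket 2. Only in Hoxb pocket 2 was C8 the highest animal, and there the highest of the other 9 was at 67.4%.

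The first comparison asked whether decitabine changed Hox methylation in the treated males. Over all Hox sites no difference beyond the spread between animals was seen: decitabine animals averaged 4.204% ± 0.212 (SD, n = 3) and vehicle animals 4.48% ± 1.02 (SD, n = 2), a difference of -0.277 points (two-sided exact permutation p = 0.8). With 2 animals against 3, no such test can go below 0.1. Without C8 the sign turned, since D10, D11 and D13 averaged 0.447 points above C14. The cluster differences were 0.240 points for Hoxa, -0.632 for Hoxb, -0.767 for Hoxc and -0.191 for Hoxd, and the groups overlapped in all 4. Against C14 alone they were 1.25, -0.0926, 0.244 and 0.221 points, so the sign turned in Hoxc and Hoxd. Over the sites of other protein-coding genes the decitabine animals were all lower, by 0.325 points (exact permutation p = 0.1), and the Hox change did not differ from it by more than the spread (difference of the within-animal values 0.0482 points, exact permutation p = 1, and 0.815 points without C8).

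Site by site, a logistic model of methylated and unmethylated reads was fitted at every CpG site, and a site was called where the pooled groups differed by at least 25 points with q under 0.01. In the P-generation 1 Hox site was called higher in decitabine animals, against 0.316% of all sites, and 8 were called lower, against 0.354% of all sites. Of the 2627 Hox sites these are 0.0381% and 0.305%. A site can be called 25 points lower only where the vehicle animals carry methylation. At 50% or more stood 1.37% of Hox sites against 28.5% of all sites, so these shares do not compare like sites. The model treats reads as independent and has no term for variation between animals. An F test with an overdispersion term called 0 Hox sites and limma called 0, and neither called any of the 904364 sites in this contrast. By the F test 27 Hox sites had an unadjusted p under 0.05 (1.03%, against 1.12% of all sites). By limma 164 had one (6.24%, against 5.57%).

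The single site called higher lay in the first exon of a Hoxd4 transcript, 141 bp from its start, in Hoxd pocket 1. It was at 20.8% in C8 and 41.9% in C14, and at 55.6%, 66.7% and 76.2% in D10, D11 and D13, so the groups did not overlap (pooled difference 32.6 points, q = 0.00959). In F3C9 and F3C30 it was at 94.4% and 57.1%, and in F3D1, F3D7 and F3D31 at 78.3%, 79.5% and 75%, with overlapping groups. The reference around it (chr2:74722105-74722134), with this site and the next pocket site in capitals, shows how close neighbouring sites stand.

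Hoxd4 first exon sites: gaggctccagccagCGcccCGggctcagga

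Of the 8 sites called lower, 3 lay in a Hoxc4 intron, at -6597, -6595 and -6582 bp from the nearest start. The first of them was at 85.7% in C8 (35 reads, Wilson 95% interval 70.6% to 93.7%, counting error only), 20.9% in C14, 17.6%, 11.9% and 17.9% in the decitabine animals, and 3.64% to 12.5% in the F3-generation. The third was at 85.7% in C8, 15.2% in C14 and 4.41% to 16.9% in the decitabine animals, so C14 lay within the decitabine range. Without C8 their pooled differences were -5.23, -5.42 and -6.12 points in place of -27.5, -27.1 and -30.6. The 3 sites are close neighbours (chr15:103027786-103027826, called sites in capitals) and share reads.

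Hoxc4 intron sites: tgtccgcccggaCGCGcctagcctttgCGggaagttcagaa

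A further Hoxc4 site, in a coding exon 1509 bp from the start, was likewise highest in C8. It was at 76.9% in C8, 19.2% in C14, 14.3% or less in the decitabine animals (14 to 33 reads) and 14.3% or less in the F3-generation (difference -40.7 points, q = 6.52e-05, and -11.9 points without C8).

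The other 4 sites called lower lay in more methylated DNA. An intronic Hoxa3 site was at 100% in C8 and 66.0% in C14, against 40.4%, 31.6% and 41.2% in D10, D11 and D13 (difference -37.9 points, q = 7.17e-05, and -27.0 points without C8). The site downstream of Hoxb5 was at 70.0% and 87.2% against 58.8%, 43.8% and 57.7% (difference -30.4 points, q = 0.00857, and -33.9 without C8). A site of Hoxb pocket 2, 20 bp upstream of the Hoxb3 start, was at 91.2% and 66.7% against 44.4%, 43.6% and 64.2% (difference -28.5 points, q = 2.99e-05, and -16.1 without C8). A site of Hoxc pocket 1 was at 90.5% and 78.3% against 48.8%, 30.8% and 67.3% (difference -31.7 points, q = 0.00091, and -27.9 without C8). In each of these 4 the decitabine animals lay below both vehicle animals. None of the 9 calls remained when C8 was left out: 0 Hox sites were then called higher (0.125% of all sites), and 1 was called lower (0.149% of all sites), a neighbouring site of Hoxc pocket 1 (9.09% in C8, 86.1% in C14, and 55.1%, 40.0% and 66.7% in the decitabine animals). When C14 was left out, 21 were called higher (2.19% of all sites) and 71 lower (2.14%).

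**Figure D4:**
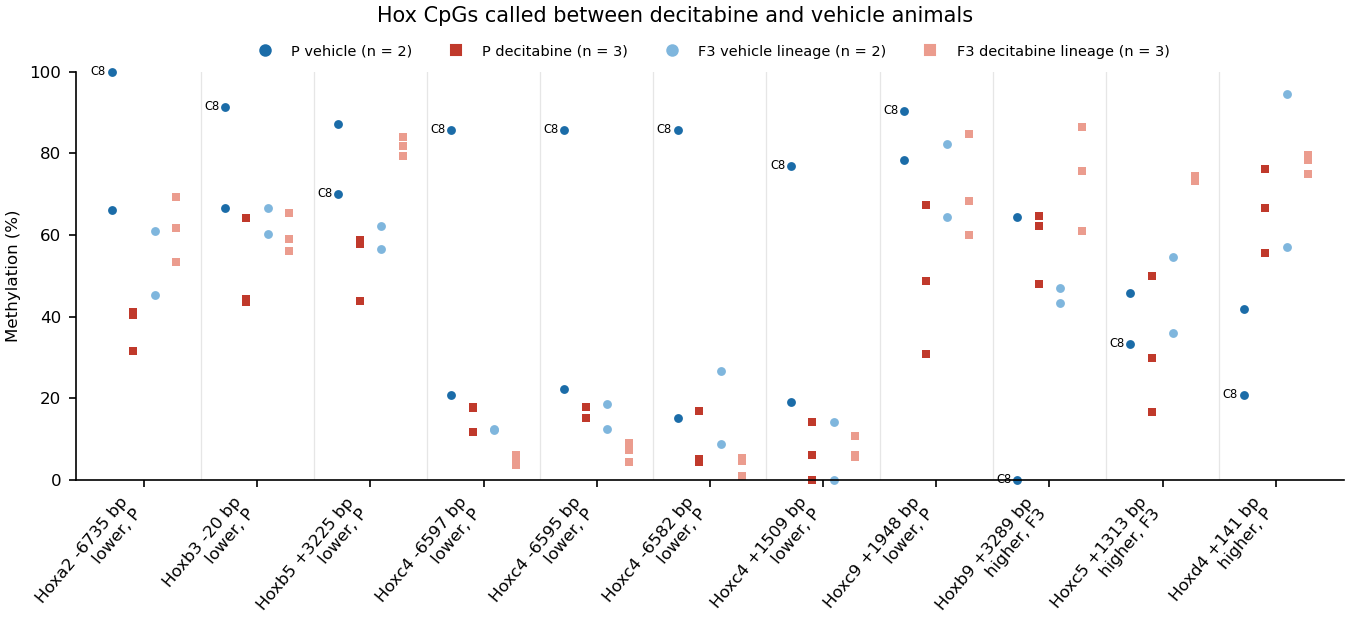
Methylation (percent) by animal at the 11 Hox CpG sites called between decitabine and vehicle animals, each named by the nearest Hox start and its distance in bp, with the direction and generation of the call; colours are the 4 groups and C8 is marked. At the 4 Hoxc4 sites C8 stands at 76.9% to 85.7% and all other animals at 26.8% or lower.

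The 3 decitabine animals all lay above both vehicle animals at 144 Hox sites (5.48%, against 3.33% of all sites) and all below at 110 (4.19%, against 5.06%). At the level of whole genes, 5 of the 38 had all decitabine animals higher (against 4.36% of the 15746 protein-coding genes with 5 or more sites), and 3 had all lower (against 16.2%). Differences were small. Hoxa2 was at 9.51% and 7.64% in C8 and C14 and at 10.7%, 12.0% and 9.90% in D10, D11 and D13 (2.29 points higher). Hoxb13, the outlying gene of its cluster and active in the prostate, was at 2.70% and 4.14% against 4.85%, 6.72% and 4.16% (1.82 points higher). Hoxc11 was 0.637 points higher, and Hoxb9 differed by -0.753 points, at 4.39% and 3.52% against 3.37%, 2.79% and 3.44%. Without C8 the differences were 3.23 points for Hoxa2, 1.102 for Hoxb13, 0.511 for Hoxc11 and -0.319 for Hoxb9. Of the 5 genes with all decitabine animals higher, 4 (Hoxb8, Hoxb13, Hoxc11 and Hoxd4) had C8 as the lowest of the 10 animals. Exact permutation p was 0.1 for Hoxb9, 0.2 for Hoxa2, Hoxb13 and Hoxd4, and 0.4 for Hoxc11.

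Over all pockets, P-generation decitabine animals averaged 62.3% ± 5.54 (SD, n = 3) and vehicle animals 61.9% ± 10.4 (SD, n = 2), a difference of 0.441 points (exact permutation p = 1). Without C8 it was -6.89 points. The single pockets went different ways, with 13.2 points for Hoxd pocket 1, 0.570 for Hoxb pocket 3 and 0.126 for Hoxb pocket 1, and -11.9 for Hoxc pocket 1 and -16.8 for Hoxb pocket 2. Against C14 alone 4 of the 5 were lower in the decitabine animals, at -10.1, -9.53 and -9.06 points for Hoxb pockets 1, 2 and 3 and -25.4 for Hoxc pocket 1, and Hoxd pocket 1 was 6.45 points higher.

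The second comparison asked the same of the untreated F3 descendants. Decitabine-lineage animals averaged 4.06% ± 0.0893 (SD, n = 3) over the Hox sites and vehicle-lineage animals 4.22% ± 0.395 (SD, n = 2), a difference of -0.156 points (exact permutation p = 0.7), which turned to 0.124 points without F3C9. By cluster the differences were -0.535 points for Hoxa, -0.202 for Hoxb, -0.187 for Hoxc and 0.253 for Hoxd, with overlapping groups in each. Relative to the sites of other genes in the same animals, the Hox sites of the decitabine lineage differed by -0.355 points and the groups did not overlap (exact permutation p = 0.1).

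In this contrast 2 Hox sites were called higher in the decitabine lineage, against 0.147% of all sites, and 0 were called lower, against 0.069% of all sites. The first was the Hoxb9 site at the end of Hoxb pocket 1, at 43.4% in F3C9, 47.1% in F3C30 and 86.5%, 75.7% and 61.1% in F3D1, F3D7 and F3D31 (difference 32.9 points, q = 0.00255). In the P-generation that site was at 0% in C8 (0 of 10 reads, Wilson interval 0 to 27.8%) and at 48.0% to 64.7% in the other 4 animals. The second lay in an intron of Hoxc10 and Hoxc5, at 54.5% and 36.0% in the vehicle lineage and 74.5%, 74.3% and 73.3% in the decitabine lineage (difference 30.9 points, q = 0.00276). In the P-generation the groups overlapped there, at 33.3% and 45.8% against 30%, 16.7% and 50%. No Hox site was called in both generations. The F test called 0 and limma 0, and again neither called any site of the genome. By the F test 38 Hox sites had an unadjusted p under 0.05 (1.45%, against 1.24% of all sites). By limma 157 had one (5.98%, against 5.08%). When F3C30 was left out, 3 Hox sites were called higher (0.114%, against 0.715% of all sites) and 12 lower (0.457%, against 0.533%), and without F3D1 0 were called higher (against 0.119%).

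Groups did not overlap at 120 Hox sites with the decitabine lineage higher (4.57%, against 5.24% of all sites) and at 146 with it lower (5.56%, against 4.49%). Of the 38 genes, 4 had the whole decitabine lineage higher (against 12.8% of genes) and 5 had it lower (against 5.97%). Hoxd4 was at 13.6% and 13.2% in the vehicle lineage and 14.5%, 14.7% and 15.3% in the decitabine lineage (1.49 points higher). Hoxd3, which shares its intron and pocket with Hoxd4, was 1.103 points higher. Among the lower ones, Hoxb4 was at 5.98% and 5.08% against 4.21%, 4.39% and 3.50% (difference -1.49 points), and the differences were -1.38 points for Hoxa7 and -1.16 for Hoxa6. Exact permutation p was 0.1, the smallest possible, for each of these 5 genes.

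Over all pockets, the decitabine lineage averaged 72.8% ± 1.94 (SD, n = 3) and the vehicle lineage 67.5% ± 6.14 (SD, n = 2), a difference of 5.25 points (exact permutation p = 0.2) that ranged from 0.912 to 9.59 points when 1 animal was left out. The single pockets differed by 6.48 and 2.34 points for Hoxb pockets 1 and 2, -0.267 for Hoxb pocket 3, -0.994 for Hoxc pocket 1 and 10.99 for Hoxd pocket 1.

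Hoxd4 was the only one of the 38 genes whose groups stood apart in the same direction in both generations, with decitabine animals higher. Of all 15746 genes, 0.375% did so, and 0.921% stood apart with the decitabine animals lower in both, none of them a Hox gene. The levels in the P-generation were 9.55% in C8 and 11.75% in C14 against 11.78%, 13% and 12.8% in D10, D11 and D13, so D10 exceeded C14 by a small margin. The difference was 1.88 points in the P-generation and 0.777 points without C8. The difference between the generations' effects was within the spread (F3 minus P -0.381 points, exact permutation p = 0.83 over 100 assignments).

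The 9 sites of Hoxd pocket 1 are among the 70 sites of Hoxd4, so the gene and the pocket are a single observation. Over the other 61 sites of the gene the groups overlapped in both generations, with differences of 0.212 points in P (exact permutation p = 0.6) and 0.0942 points in F3 (exact permutation p = 0.9). Hoxd pocket 1 was at 48.6% in C8 and 62.0% in C14, at 63.6%, 69.9% and 71.9% in D10, D11 and D13, at 67.95% in F3C9 and 67.9% in F3C30, and at 78.2%, 81.1% and 77.4% in F3D1, F3D7 and F3D31. Decitabine animals were higher by 13.2 points in the P-generation and by 10.99 points in the F3-generation, without overlap in either (exact permutation p = 0.1 in each, the smallest possible). In P the absence of overlap rested on D10 at 63.6% and C14 at 62.0%. The next intron sites, at -1783 and -1738 bp from the Hoxd4 start, were not part of the pocket. The nearer lay 1014 bp away, just above the gap allowed. There D10 was at 41.0% and 63.2%, below C14 at 72.7% and 77.4%, and the groups overlapped in both generations. The P separation may thus depend on the gap chosen, and a pocket with these sites was not tested. Without C8 the P difference of the pocket was 6.45 points. It was largest at the first-exon sites 113, 141 and 146 bp from the Hoxd4 start. There the P decitabine animals averaged 59.99%, 66.1% and 65.1% and the P vehicle animals 29.8%, 31.4% and 31.4%. In F3 the groups overlapped at each of these sites. With reads pooled, the differences at the 3 sites were 28.8, 32.6 and 31.2 points in P and 13.5, 0.253 and 9.42 points in F3. The P and F3 differences were thus not carried mainly by the same sites. The pocket was also higher in the F3-generation as a whole, by 11.3 points (exact permutation p = 0.0476), by 12.6 points between the vehicle groups (5.903 points without C8) and by 10.4 points between the decitabine groups. Each of the 5 descendants lay above its own ancestor there, by 19.4 points for F3C9, 5.88 for F3C30, 14.6 for F3D1, 13.7 for F3D31 and 11.2 for F3D7. With F3D1 and F3D31 averaged, the mean over 4 ancestors was 12.7 points (exact sign-flip permutation p = 0.125, the smallest possible). Hoxd pocket 1 was the only pocket whose groups stood apart. Pockets were defined by the mean of the same 10 animals. The first-exon sites of Hoxd pocket 1 were under 50% in both P vehicle animals. These sites entered the pocket through the other animals. The P separation, the F3 against P differences and the ancestor pairs are therefore not independent of the definition. Since the pocket was singled out after the values of 5 pockets and 38 genes were seen, these p-values are not adjusted for that choice, and the F3 animals share ancestry with the P animals.

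**Figure D5:**
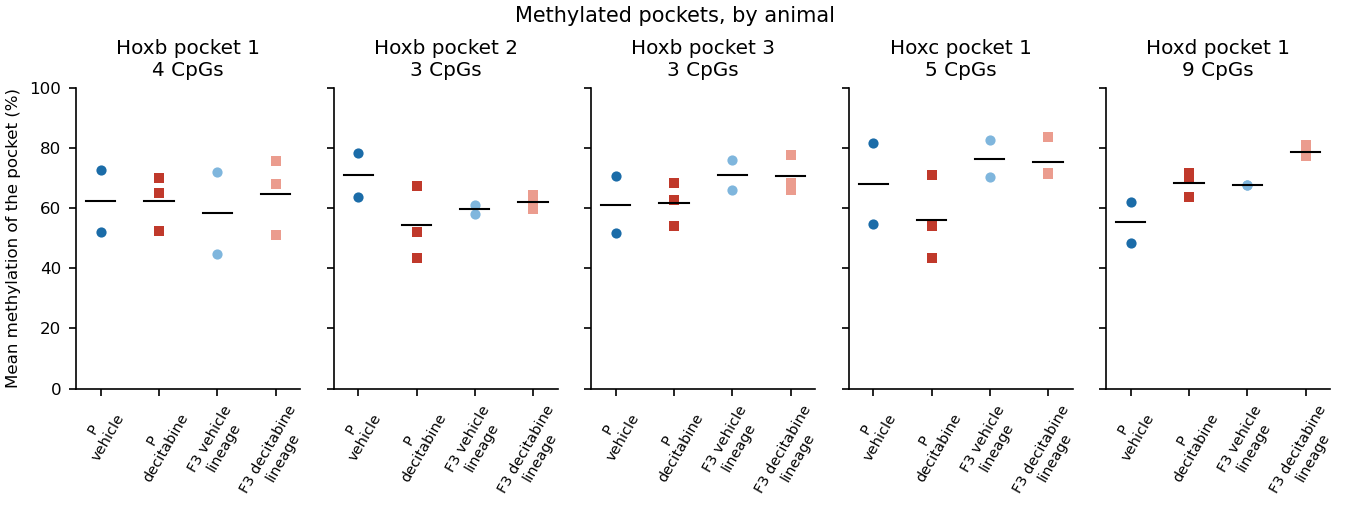
Mean methylation of the 5 pockets (percent) by animal and group, with black lines at the group means. In Hoxd pocket 1 the decitabine animals lie above the vehicle animals in both generations (68.5% against 55.3% in P and 78.9% against 67.9% in F3), and in the other pockets the groups overlap.

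The third comparison set the generations against each other, with all 5 animals of each. Its permutation tests treat the animals as independent, although each F3 animal descends from a P animal here. The Hox mean differed by -0.190 points (F3 minus P, exact permutation p = 0.587), and the difference between the group effects of the 2 generations was 0.121 points (exact permutation p = 0.88). Hoxc differed by -0.740 points (exact permutation p = 0.0476), with C8 at 7.46% and the other animals of both generations at 5.05% to 5.93% (-0.372 points without C8), and the other clusters differed by -0.586 (Hoxa), 0.447 (Hoxb) and 0.0664 points (Hoxd), each with a p above 0.1. Over the sites of other genes the F3-generation was higher by 0.361 points (exact permutation p = 0.0159). All P animals were injected with vehicle or drug and no F3 animal was. Generation, injection and the time at which samples were taken therefore cannot be told apart.

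Of the 38 genes, 5 were higher in the F3-generation at an unadjusted exact permutation p under 0.05 (against 10.3% of genes) and 2 were lower (against 1.3%). The higher ones were Hoxd4 by 2.47 points, Hoxb3 by 1.99, Hoxb7 by 1.44, Hoxc10 by 1.16 and Hoxb8 by 0.3003, and the lower ones were Hoxa13 (difference -0.497) and Hoxd1 (-0.456). Against their own ancestors, 5 of 5 descendants were higher in Hoxd4, Hoxb3, Hoxb7 and Hoxb8 and 4 of 5 in Hoxc10. For Hoxa13 it was 1 of 5 and for Hoxd1 0 of 5. Over 4 ancestors the exact sign-flip permutation p was 0.25 for Hoxc10 and Hoxa13 and 0.125, the smallest possible, for the others. Hoxb7 was at 1.16% to 2.31% in the 5 P animals and 2.90% to 3.98% in the 5 F3 animals. Of its 63 sites 60 were under 10%, and the sites nearest to its own start averaged 1.08%. The gene value includes a site between Hoxb6 and Hoxb7 that is named again below. That site was at 26.1% to 35.2% in the P animals and 47.5% to 65.1% in the F3 animals.

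Site by site, the F3 vehicle lineage was called higher than the P vehicle animals at 5 Hox sites (against 0.399% of all sites) and lower at 7 (against 0.347%). Of the 5 higher ones, 3 lay in the first exon of Hoxd4 and 1 in the intron at -1738 bp from its start, where C8 was at 25% and the other animals at 63.2% to 92.3%. The other lay at -1442 bp from the Hoxb13 start. Of the 7 lower ones, 3 were Hoxc4 sites described above, and the others lay near Hoxa2, Hoxc12, Hoxc13 and Hoxd9. These calls did not remain without C8, which leaves C14 alone in the P vehicle group. Calls over all sites became fewer as well, so the loss was not particular to Hox sites. In decitabine animals the F3-generation was called higher at 4 Hox sites (against 0.353%) and lower at 0 (against 0.153%), and C8 has no part in that contrast. The 4 were the Hoxc10 and Hoxc5 intron site (30%, 16.7% and 50% against 74.5%, 74.3% and 73.3%), the site downstream of Hoxb5 (58.8%, 43.8% and 57.7% against 79.3%, 81.8% and 84.0%), the last site of Hoxc pocket 1 (55.1%, 40.0% and 66.7% against 79.7%, 85.5% and 88.1%) and a site between Hoxb6 and Hoxb7 (28.9%, 26.1% and 28.6% against 57.4%, 65.1% and 64.8%). The groups did not overlap at any of the 4. The F test and limma called 0 Hox sites in these 2 contrasts. By the F test 3 had an unadjusted p under 0.05 in vehicle animals (0.114%, against 0.131% of all sites) and 83 in decitabine animals (3.16%, against 3.09%). By limma 148 had one in vehicle animals (5.63%, against 4.18%) and 197 in decitabine animals (7.5%, against 6.59%). Over all sites limma called 1, in the decitabine contrast. These site-by-site contrasts between generations were added after the data were seen.

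Outside the clusters, 16 genes that work with or are related to Hox genes were read in the same way (1315 sites, mean 11.4%). In the P-generation 1 of their sites was called higher (0.076%, against 0.316% of all sites) and 5 lower (0.38%, against 0.354%), and in the F3-generation 1 higher (against 0.147%) and 0 lower (against 0.069%). The ParaHox and Cdx genes, homeobox relatives outside the Hox clusters, were also low, at 1.12% for Gsx1, 1.37% for Cdx2, 1.78% for Gsx2 and 2.28% for Pdx1. Evx2 and Evx1, which flank the Hoxd and Hoxa clusters, were at 2.17% and 5.86%. The genes of the cofactors that bind DNA with Hox proteins were spread widely, from 2.91% for Pbx3 and 6.87% for Meis1 to 24.3% for Pknox2 (138 sites) and 76.8% for Pbx4 (10 sites).

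Levels beyond the outermost genes differed between clusters. Within 50 kb outside the Hoxb cluster the mean was 31.7% on the Hoxb13 side (25 sites) and 50.8% on the Hoxb1 side (24 sites). Outside the Hoxc cluster it was 1.30% (10 sites) and 8.62% (44 sites), and on the Evx1 side of the Hoxa cluster 11.7% (77 sites). Outside the Hoxd cluster it was 2.17% on the Evx2 side (104 sites, those counted for Evx2) and 72.9% on the Hoxd1 side (2 sites). The 74.0 kb between Hoxb13 and Hoxb9, which hold no other listed gene, were at 8.80% (98 sites), of which 5 were at 50% or more.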

How the data were processed

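Spermatozoal DNA of 10 mice was analysed by RRBS. The authors trimmed reads with Trim Galore 0.3.3 and cutadapt 1.1, mapped them to mm10 and extracted calls with Bismark 0.10.1 (versions from the submitters' processing notes; CASAVA 1.8.2 demultiplexed). They deposited 2 raw counts per CpG cytosine and animal, methylated and unmethylated reads, neither normalized nor filtered.

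From these counts the strands of each CpG site were summed, and sites with 10 or more reads in all 10 animals were kept. The level of a region is the mean over its sites of the percent methylation. Genes were taken from GENCODE M21 and sequences from RefSeq GRCm38. A logistic model per site followed the study's thresholds, with Benjamini-Hochberg q-values over all sites. Alternatives were an F test with overdispersion and limma 3.58.1 (R 4.3.3) on log2 ratios with 1 read added to each count. Means were compared by exact permutation over animals (Python 3.11.15, numpy 2.4.6, scipy 1.17.1). Code was tested on simulated data. Methylation calls, summed over the CpG cytosines that each read covers, numbered 48903817 to 115158278 per animal, and with 10 reads a level is imprecise. Bisulfite reads here carry no molecular identifiers, so intervals cover counting error only.

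Members and lists were chosen with earlier results of these data known. Named genes were the 2 highest and 2 lowest per cluster, the 5 per generation with the largest group difference among those whose groups did not overlap, and genes at pockets. All called sites of the planned contrasts were named. Low-coordinate Hoxa flanking sites were not used here. The value of 1 related gene is not reported here.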

Additional observations from a re-analysis of the deposited data

Results flagged for a closer look

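Of 62 levels tested for a change of the decitabine minus vehicle difference between generations, 3 had an unadjusted exact permutation p under 0.05 over the 100 assignments or stood apart in opposite directions. Over the sites of other protein-coding genes the difference was -0.325 points in the P-generation and 0.199 points in the F3-generation, a change of 0.524 points (exact permutation p = 0.01), and the groups did not overlap in either. At the intronic Hoxa3 site the mean difference was -45.3 points in the P-generation and 8.25 points in the F3-generation, a change of 53.6 points (exact permutation p = 0.02). At the site downstream of Hoxb5 it was -25.2 and 22.3 points, a change of 47.5 points (exact permutation p = 0.01), and the groups stood apart in opposite directions. Both sites were chosen because they were called in the P-generation, so their P difference is not independent of that choice. None of the 3 p-values is adjusted over the 62, and the lowest p among the 38 genes was 0.06.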

How the results depend on the processing

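Of 172 alternative values of the main results, 115 were labelled the same, 47 moved and 10 reversed. Counts of called sites were compared by size, so the same label does not mean that the same sites were called. Without F3D7, 2 Hox sites were called higher in the F3-generation, and 1 of them was among the 2 main calls. A mean difference labelled the same kept its direction, which does not mean that it exceeded the spread between animals. With 20 reads per CpG site, the P calls were 0 higher and 5 lower, the F3 calls 0 higher, the F3 against P calls 0 higher and 3 lower in vehicle animals and 2 higher in decitabine animals, and 3 pockets were found. The F test and limma each gave 0 for every contrast and direction. With a difference of 10 points the calls were 8 higher and 33 lower in P and 6 higher and 15 lower in F3. Shares over all sites are not given for the calls at 20 reads or at 10 points, so these counts cannot be set against the genome. At a level of 25% there were 9 pockets, at 75% 0 (so no pocket difference could be computed), and with at least 5 sites 2. The P pocket difference was -2.12 points with reads pooled and -1.75 points at the 25% level, and the change of the Hox group difference was -0.208 points with reads pooled.

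Leaving out 1 animal at a time, the P calls ranged from 0 to 21 higher and from 1 to 71 lower, the F3 calls from 0 to 3 higher and from 0 to 12 lower, the vehicle F3 against P calls from 0 to 16 higher (without F3C30, against 0.749% of all sites) and from 0 to 76 lower (without C14, against 2.34%), and the decitabine ones from 3 to 9 higher and from 0 to 2 lower. With 1 vehicle animal left, the model assumes no variation between animals. The highest decitabine counts were 9 higher without D13 (0.343%, against 0.611% of all sites) and 2 lower without D10 (0.0761%, against 0.211%). The Hox difference ranged from -1.001 to 0.447 points in P and from -0.435 to 0.124 in F3, the change between them from -0.603 to 0.845, the F3 minus P level from -0.330 to 0.0324, and the P pocket difference from -6.89 to 7.78. Values that reversed were 0.447 (P) and 0.0324 (F3 minus P level) without C8, -0.603 without C8 and -0.158 without F3C30 (change), -6.89 without C8 and -2.72 without D13 (P pockets), and 0.124 without F3C9 (F3). The causes were not tested. With 1 animal left out the Hox minus other difference stayed between -16.96 and -16.78 points, and 5 to 6 cluster pairs and 5 to 6 pockets were found. Over all 10 animals that difference was smaller in size with reads pooled (-12.89 points) and with 20 reads per CpG site (-12.86 points). Of 22 named genes, 6 moved when a site counted only for the nearest start, among them Hoxb4 from 4.44% to 1.35%, Hoxa2 to 12.8%, Hoxc10 to 6.34% and Hoxd3 to 4.81%. No paired analysis was possible of decitabine against vehicle because animal numbers are not shared between those groups. Pairing each F3 animal with its ancestor (from the study's methods, added after the data were seen; 4 ancestors, smallest exact sign-flip permutation p 0.125) gave -0.255 points for the Hox mean (p = 0.375, higher in 1 of 5 pairs) and 9.81 points for all pockets (p = 0.125, higher in 5 of 5). Pocket sites were chosen by the mean of the same 10 animals, so the paired pocket value is not independent of that choice. Depth of 10 reads limits single sites, and 2 vehicle animals per generation limit every group test.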
